A study of Mus musculus with 24 samples.

Results

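The insulin-like growth factor (IGF) axis is described here through 10 mouse genes: the ligand Igf1, the receptors Igf1r and Insr, the receptor substrates Irs1 and Irs2, and the binding protein genes Igfbp2, Igfbp3, Igfbp4, Igfbp5 and Igfbp7. They were taken by name from the gene count matrix through its Entrez identifiers, and make up 10 of the 27179 genes listed. RNA was sequenced in bulk from mammary epithelial cells of pubertal mice, whose age is not otherwise given, in 24 libraries that form 12 groups of 2. Terminal end buds (TEBs), the bulbous tips from which ducts elongate in puberty, and the ducts behind them were microdissected and sorted separately. Each was sorted in 2 mouse models, one carrying Elf5-rtTA-IRES-GFP (a GFP reporter of Elf5, a luminal progenitor factor) and one carrying PR-cre with Rosa26-LSL-eYFP (in which cells that have expressed Cre from the progesterone receptor gene, and their descendants, are YFP+). The 12 groups were, for TEBs and for ducts, the Lin- EpCAM+ CD29hi basal cells of the Elf5 model and of the PR-cre model, and the Lin- EpCAM+ CD29lo luminal cells that were GFP+, YFP-, GFP- or YFP+. All mice of a model carried its reporter alleles, so no group is free of them. Whether both libraries of a group stem from different animals is not stated, so the p-values only reflect the spread of these libraries, which may be technical. Column names repeat a model and replicate number across gates and across TEBs and ducts. Libraries of different gates, and TEB and duct libraries of the same gate, may therefore come from 1 preparation.

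IGF1 made in the liver and in the mammary stroma acts through the receptor IGF1R, while the closely related insulin receptor INSR binds insulin with higher affinity. Both receptors phosphorylate the docking proteins IRS1 and IRS2, which recruit phosphoinositide 3-kinase and so activate AKT. Secreted IGF-binding proteins carry IGFs, prolong their life and hold them away from the receptor, and proteases such as PAPP-A release them. In the pubertal mammary gland, growth hormone acts through local IGF1 to drive TEB formation and ductal growth.

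On GRCm38, Igfbp2 (chr1:72824480-72852474, plus strand) and Igfbp5 (chr1:72858065-72874865, minus strand) lie with their 3′ ends facing, 5590 bases apart. They are shown first because their transcripts changed in opposite directions in the basal layer, with Igfbp2 higher and Igfbp5 lower in TEBs than in ducts. The 250 bases before each annotated start, from RefSeq on GRCm38.p6, are given 5′ to 3′ along the strand of the gene, from chr1:72824230-72824479 for Igfbp2 and chr1:72874866-72875115 for Igfbp5. Capitals mark GC boxes, searched as GGGCGG on both strands.
Igfbp2: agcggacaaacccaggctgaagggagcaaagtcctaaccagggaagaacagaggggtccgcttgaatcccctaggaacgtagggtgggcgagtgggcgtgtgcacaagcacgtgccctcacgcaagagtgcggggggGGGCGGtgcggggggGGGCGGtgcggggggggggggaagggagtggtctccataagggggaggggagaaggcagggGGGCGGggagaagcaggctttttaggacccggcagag
Igfbp5: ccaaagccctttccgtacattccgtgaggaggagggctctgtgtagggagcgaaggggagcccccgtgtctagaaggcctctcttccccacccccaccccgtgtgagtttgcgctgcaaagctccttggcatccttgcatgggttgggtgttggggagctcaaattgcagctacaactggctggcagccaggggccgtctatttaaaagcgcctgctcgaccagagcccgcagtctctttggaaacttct
The Igfbp2 stretch held 3 GC boxes, starting 113, 98 and 37 bases before the start, and the Igfbp5 stretch held none. Bases 16 to 45 after the start were found in a GENCODE transcript of Igfbp5 but in none of Igfbp2. The same stretch was searched on both strands for a TATA box (TATAAA), an AP-1 site (TGANTCA), a FOXO site (GTAAACA) and a STAT site (TTCNNNGAA). Neither printed stretch had a match to any of them. Among the 9 genes of the set with a RefSeq promoter, GC boxes also occurred in Igf1r (2), Irs1 (2), Irs2 (1) and Igfbp7 (4). Igf1, Igfbp3 and Igfbp4 had none. Of these genes, Irs1, Irs2 and Igfbp7 were lower in basal TEBs than in basal ducts, and Igfbp4 was higher. TATAAA occurred in Igfbp4 alone among the 9, 28 bases before the start of the promoter searched. The AP-1 letters occurred in Igf1, 37 bases before that start, and in a second promoter of Igfbp2, 39 bases before its start. The promoters searched for Igfbp4 and Igf1 (windows from chr11:99040994 and chr10:87860861) lie downstream of the annotated gene starts (99040005 and 87858265). Neither the FOXO nor the STAT letters occurred in any. Of 32841 promoters searched the same way, 32.7% held the GC box, 12.4% the TATA box, 7.0% the STAT letters, 6.8% the AP-1 letters and 3.2% the FOXO letters.

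Total counts ran from 31.3 to 52.5 in units of 1e6 per library. On these totals 3 counts, the floor used for a gene at 0, stood for 0.057 to 0.096 CPM (counts per 1e6). Floors are on these unscaled totals, and all other CPM values are on library sizes scaled by TMM. All 10 genes passed the filter on low counts, among 18109 tested. Sums of 8 basal marker transcripts were 5759 to 30430 CPM in basal libraries and 8.61 to 3316 CPM in luminal ones. Elf5 was at 410 to 1657 CPM in GFP+ and YFP- libraries, against 15.03 to 87.3 CPM in GFP- and YFP+ libraries. Pgr, the progesterone receptor gene, was at 13.2 to 73.3 CPM in GFP+ and YFP- libraries, against 202 to 635 CPM in GFP- and YFP+ libraries. GFP+ was therefore grouped with YFP-, and GFP- with YFP+, as the progenitor-lineage and the hormone-sensing side of the luminal layer. The design text of the series instead writes GFP+ beside YFP+ and GFP- beside YFP-, so the pairing used here rests on these 2 transcripts and not on the labels. Luminal GFP- duct replicate 2 and luminal YFP- TEB replicate 2 stood apart. Their summed levels of 12 keratinocyte transcripts were 2553 and 521.1 CPM, against 9.3 to 92.9 CPM in all other libraries, and their basal marker sums were 3316 and 811.2 CPM, against 29.7 and 148.2 CPM in the other library of their group. Values that changed most on leaving out both are given with and without them, and in GFP- cells the calls of Igfbp2, Igfbp3, Igfbp4 and Igfbp7 between TEBs and ducts were lost (log2 fold changes of -2.99, -7.66, -3.54 and -1.10 with all libraries, and -0.15, -1.69, 0.02 and -0.48 without both).

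In the basal layer, 7 of the 10 genes differed between TEBs and ducts. Igfbp2 and Igfbp4 were higher in TEBs, and Insr, Irs1, Irs2, Igfbp5 and Igfbp7 were lower, at an adjusted p under 0.05 in edgeR's quasi-likelihood test. Of all genes, 43.6% were called in this comparison, 20.9% higher and 22.8% lower in TEBs. The median log2 fold change of the set was -0.84, beside -0.035 for all genes. The 4 TEB and 4 duct libraries did not overlap for those same 7 genes, as for 37.4% of all genes. In the luminal layer, 6 of the 10 were called and all 6 were lower in TEBs (Igf1r, Insr, Irs1, Irs2, Igfbp5 and Igfbp7), against a background of 38.7% called, 20% higher and 18.6% lower. All 10 overlapped between the 8 luminal TEB and 8 luminal duct libraries, while 2.97% of all genes did not. Without the 2 libraries that stood apart, 9 of 10 were called in the basal layer and 7 of 10 in the luminal layer, against 46.0% and 35.6% of all genes. The TEB effect itself differed between the layers for 2 of 10 genes, Irs2 and Igfbp7, both lower in basal cells (26.3% of all genes called, 11.4% higher and 14.9% lower; 3 of 10 and 28.3% without the 2 libraries). In bulk libraries, fewer cells of a type and less RNA per cell cannot be told apart.

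**Figure D1:**
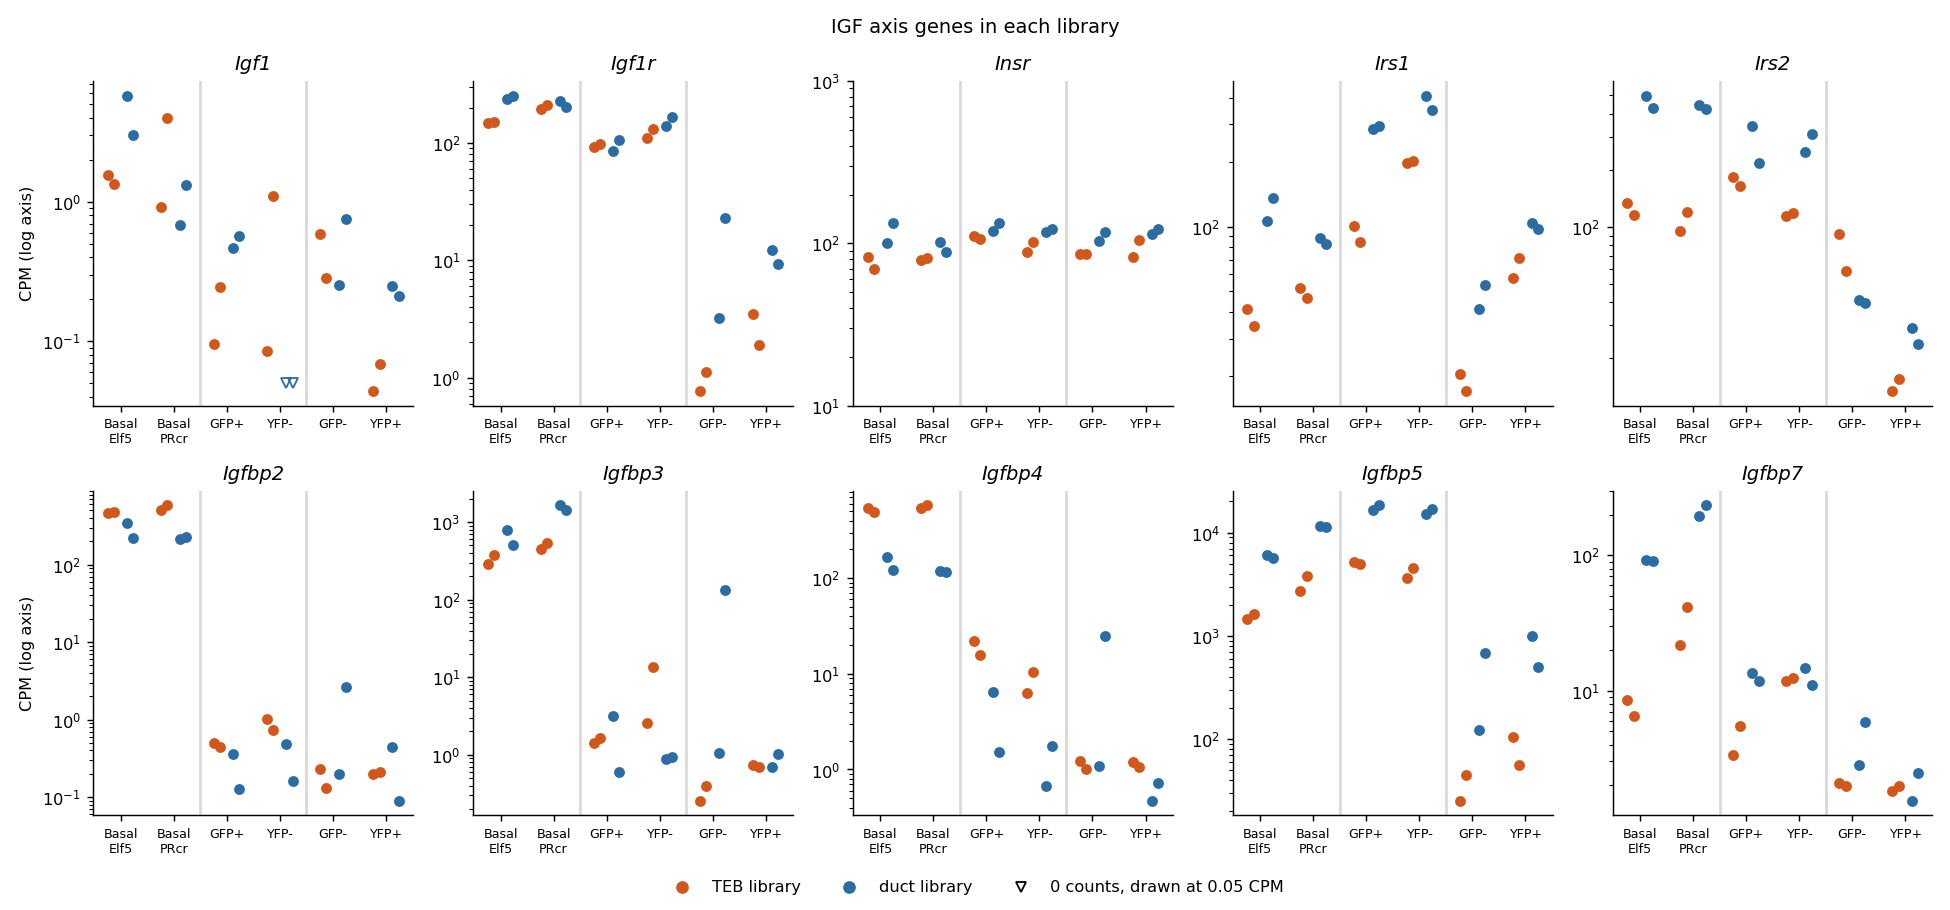
Level of each of the 10 genes in CPM on a log axis, for each of the 12 groups, with TEB groups left of their duct groups. Each point is a library. Insr, Irs1 and Igfbp5 points of the TEB groups lie below those of the matching duct groups in each population. The lowest basal points of Igfbp2 and Igfbp4 (212.3 and 114.8 CPM) lie above the highest luminal ones (2.66 and 24.9 CPM).

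The ligand transcript Igf1 was scarce throughout. It had 1.57 and 1.34 CPM in basal TEBs of the Elf5 model and 0.926 and 4.03 CPM in those of the PR-cre model, against 5.77 and 3.01 CPM and 0.679 and 1.32 CPM in basal ducts of the same models. The TEB and duct libraries overlapped, with a log2 fold change of -0.15 and an adjusted p of 0.90. Luminal libraries held between 0 and 1.11 CPM, or 0 to 42 counts, and overlapped with the basal ones. In YFP- ducts both libraries had 0 counts, below floors of 0.081 and 0.096 CPM, so no fold is given for a comparison that uses them. The basal libraries also held more of 12 fibroblast transcripts, a sum of 763.5 to 1735 CPM, against 26.9 to 815.8 CPM in luminal libraries. Fibroblasts are a known source of Igf1, and the part of such cells in its level was not tested.

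Igf1r, the IGF1 receptor, was a transcript of basal and progenitor-lineage luminal cells. Basal TEBs had 149.8 and 152.7 CPM (Elf5 model) and 195.0 and 210.2 CPM (PR-cre model), against 237.7 and 253.2 CPM and 228.5 and 203.0 CPM in basal ducts. Luminal GFP+ and YFP- cells had 92.2 and 98.5 CPM and 110.8 and 131.7 CPM in TEBs, against 85.7 and 106.6 CPM and 139.9 and 168.0 CPM in ducts. Pooled over the models, the TEB and duct libraries overlapped in both kinds of cell, although within the Elf5-model basal cells and within the YFP- cells both TEB libraries lay below both duct libraries. Luminal GFP- cells had 0.769 and 1.12 CPM in TEBs, against 3.22 and 23.0 CPM in ducts, and YFP+ cells had 3.499 and 1.91 CPM in TEBs, against 12.3 and 9.30 CPM in ducts. These 8 libraries were the lowest of the 24, and in each of the 2 gates both TEB libraries lay below both duct libraries, with a slight overlap when the gates are pooled. The 23.0 CPM came from the GFP- duct library with keratinocyte transcripts.

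The difference between the luminal populations was tested at each site. In TEBs, Igf1r was 66.8-fold higher in GFP+/YFP- than in GFP-/YFP+ cells (log2 fold change 6.06 ± 0.48, SE, adjusted p = 1.78e-07), and in ducts it was 10.2-fold higher (3.35 ± 0.41, adjusted p = 1.09e-05). The contrast was larger in TEBs, since the TEB effect was 2.71 ± 0.58 higher on the log2 scale in GFP+/YFP- cells (adjusted p = 0.00923). In ducts the value was 4.35 without the 2 libraries that stood apart (adjusted p = 8.5e-11), and the difference in TEB effect was then 1.64 (adjusted p = 0.000513). The lower Igf1r in GFP- TEBs relative to GFP- ducts was -3.78 with both libraries and -1.76 without them (adjusted p = 0.00232 and 0.00284). In YFP+ cells it was -1.99, which missed the threshold (adjusted p = 0.0588).

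Basal cells had 6.05-fold more Igf1r than luminal cells in ducts (log2 fold change 2.60 ± 0.31, adjusted p = 4.94e-06) and 13.3-fold more in TEBs (3.74 ± 0.33, adjusted p = 2.22e-07), without overlap of libraries at either site. Between basal TEBs and basal ducts the change was -0.40 ± 0.37, with a 95% interval of -1.19 to 0.40 (adjusted p = 0.422). With the 2 luminal libraries left out of the fit, in which all groups share 1 estimate of the spread, the same estimate passed the threshold (adjusted p = 0.0213).

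Insr, the insulin receptor gene, spanned a narrow range. It lay between 69.4 and 133.8 CPM in all 24 libraries. Basal TEBs had 69.4 to 82.2 CPM, against 88.2 to 133.8 CPM in basal ducts, with no overlap and a log2 fold change of -0.44 ± 0.10 (adjusted p = 0.00152). By model, it was -0.63 in Elf5-model basal cells (adjusted p = 0.00178) and -0.24 in PR-cre-model ones, which missed the threshold (adjusted p = 0.229). Luminal TEBs differed from luminal ducts by -0.31 ± 0.07 (adjusted p = 0.00174). No single luminal gate passed the threshold (-0.21 to -0.36, adjusted p = 0.0755 to 0.304). Between GFP+/YFP- and GFP-/YFP+ cells the difference was 0.11 in ducts and 0.18 in TEBs on the log2 scale, with 95% intervals of -0.10 to 0.31 and -0.03 to 0.39 (adjusted p = 0.399 and 0.143). In TEBs, basal cells had less Insr than luminal cells (-0.30 ± 0.09, adjusted p = 0.00618).

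With lengths taken into account, the receptors can be set side by side within a library. In basal TEBs the mean level of Igf1r was 14.8 ± 2.53 RPKM (counts per kilobase of the deposited gene length and 1e6 counts; SD, n = 4) and that of Insr was 8.34 ± 0.629 RPKM. The ratio of Igf1r to Insr per length was 1.42 to 2.02 in basal TEBs, against 1.48 to 1.83 in basal ducts. In GFP+/YFP- cells it was 0.649 to 1.01 in TEBs, against 0.558 to 1.07 in ducts. In GFP-/YFP+ cells it was 0.00698 to 0.0330 in TEBs, against 0.0242 to 0.152 in ducts. Basal libraries thus held more Igf1r than Insr transcript, GFP+/YFP- libraries about as much or less, and GFP-/YFP+ libraries far less Igf1r than Insr.

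**Figure D2:**
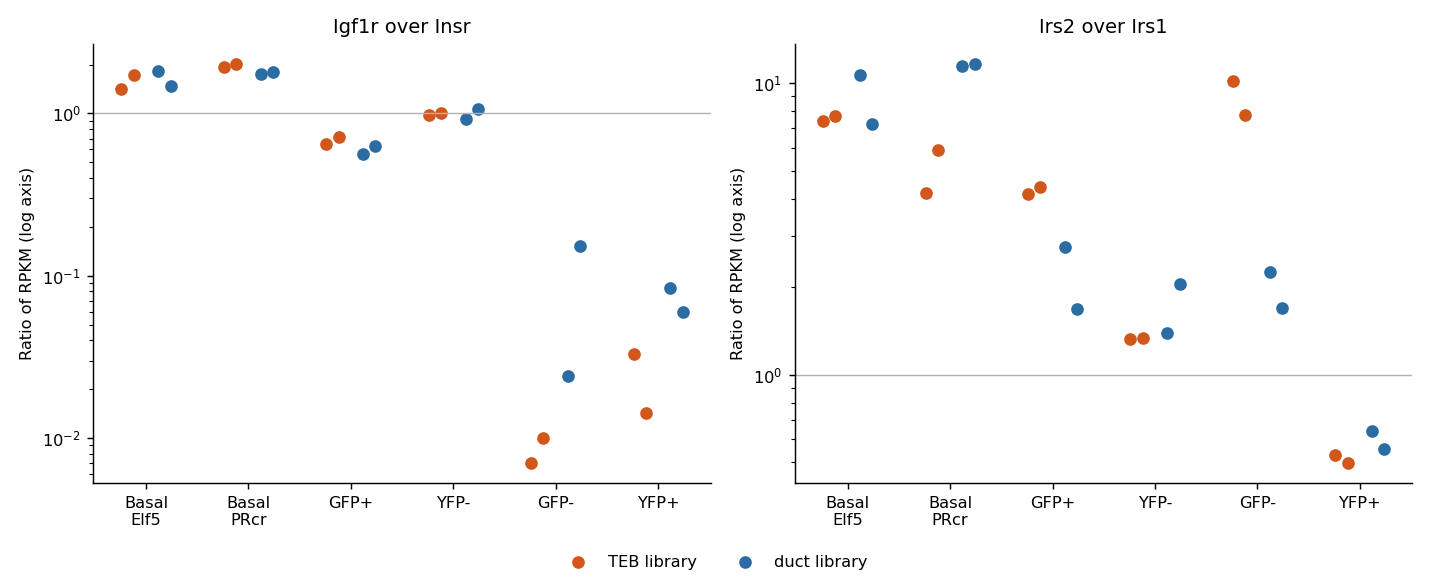
Ratio per length of Igf1r to Insr and of Irs2 to Irs1 in each library, on log axes, for TEBs and ducts of basal, GFP+/YFP- and GFP-/YFP+ cells. The Igf1r to Insr ratio is above 1.4 in each basal library and at most 0.152 in each GFP-/YFP+ library.

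Irs1, a docking substrate of both receptors, was lower in TEBs than in ducts in all 6 sorted populations. Basal TEBs had 41.3 and 34.3 CPM (Elf5 model) and 51.5 and 46.6 CPM (PR-cre model), against 106.6 and 135.3 CPM and 88.3 and 83.2 CPM in basal ducts. GFP+ cells had 101.0 and 85.2 CPM in TEBs, against 286.3 and 295.2 CPM in ducts, and YFP- cells had 198.0 and 202.2 CPM in TEBs, against 407.5 and 351.0 CPM in ducts. GFP- cells had 20.5 and 17.1 CPM in TEBs, against 41.2 and 53.2 CPM in ducts, and YFP+ cells had 57.7 and 71.5 CPM in TEBs, against 104.0 and 97.8 CPM in ducts. No TEB library reached the lower duct library of its own population. The log2 fold changes were -1.68 and -0.81 in basal cells of the Elf5 and PR-cre models, -1.64 in GFP+, -0.92 in YFP-, -1.33 in GFP- and -0.64 in YFP+ cells, each past the threshold. Of all genes, 0.376% were called lower in all 6 populations, and among the 10 these were Irs1 and Igfbp5. Over the layers the change was -1.24 ± 0.11 in basal cells and -1.13 ± 0.08 in luminal cells (adjusted p = 1.54e-07 and 1.87e-08). When each library was left out in turn, the call in the single populations was lost in 2 of 24 fits, both in YFP+ cells (-0.59 without duct replicate 1 and -0.49 without TEB replicate 1, adjusted p = 0.108 and 0.192).

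Among luminal cells Irs1 was higher in GFP+/YFP- than in GFP-/YFP+ cells, by 2.27 ± 0.11 on the log2 scale in ducts (4.81-fold, adjusted p = 8.29e-11) and by 1.97 ± 0.11 in TEBs (adjusted p = 4.58e-10). Neither comparison showed overlap of libraries. Basal cells had less Irs1 than the luminal cells as a whole, by -0.57 ± 0.10 in ducts and -0.68 ± 0.10 in TEBs (adjusted p = 5.08e-05 and 9.19e-06), although the basal libraries fell within the wide luminal range at both sites.

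Irs2, the other docking substrate, was lower in basal TEBs by a larger margin. Basal TEBs had 134.0 and 115.7 CPM (Elf5 model) and 94.8 and 119.9 CPM (PR-cre model), against 498.1 and 429.4 CPM and 443.3 and 423.8 CPM in basal ducts. The groups stood far apart, with a 3.87-fold lower level in TEBs (log2 fold change -1.95 ± 0.16, adjusted p = 8.15e-08). GFP+ cells had 184.9 and 164.4 CPM in TEBs, against 343.9 and 218.0 CPM in ducts, and YFP- cells had 115.0 and 118.0 CPM in TEBs, against 248.9 and 313.8 CPM in ducts. In luminal cells together the change was -0.48 ± 0.11 (adjusted p = 0.00204), and the TEB effect was 1.47 ± 0.19 lower on the log2 scale in basal than in luminal cells, a difference of -1.47 (adjusted p = 2.34e-05).

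The 2 hormone-sensing gates moved in opposite directions for Irs2. GFP- cells had 91.3 and 58.3 CPM in TEBs, against 40.8 and 39.4 CPM in ducts, a log2 fold change of 0.90 ± 0.22 (adjusted p = 0.00981). YFP+ cells had 13.4 and 15.6 CPM in TEBs, against 29.1 and 23.8 CPM in ducts, a change of -0.87 (adjusted p = 0.0226). The libraries did not overlap in either gate. The difference between the 2 changes, a comparison chosen after seeing the data, was 1.77 ± 0.31 (adjusted p = 0.0355), in a contrast that called 0.193% of all genes and 1 of the 10. That call was lost in 7 of 15 alternatives. Without the 2 libraries that stood apart the change in GFP- cells was 0.87 and missed the threshold (adjusted p = 0.0782), and the difference had an adjusted p of 0.0497. Between GFP+/YFP- and GFP-/YFP+ cells Irs2 was 8.63-fold higher in ducts (3.11 ± 0.16, adjusted p = 3.03e-10) and higher by 2.12 ± 0.16 in TEBs (adjusted p = 1.72e-08).

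Per length, Irs2 outweighed Irs1 in basal cells. The ratio of Irs2 to Irs1 was 4.21 to 7.70 in basal TEBs, against 7.24 to 11.6 in basal ducts, and it was 1.33 to 4.40 in GFP+/YFP- TEBs, against 1.39 to 2.74 in GFP+/YFP- ducts. In GFP-/YFP+ cells it ran from 0.496 to 10.2 in TEBs and from 0.555 to 2.26 in ducts. The wide TEB range of GFP-/YFP+ cells follows the gates, with the YFP+ libraries low and the GFP- libraries high.

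Among the binding proteins, Igfbp2 and Igfbp4, both secreted carriers of IGFs, were basal transcripts that were higher in TEBs. Igfbp2 had 459.6 and 478.1 CPM (Elf5 model) and 498.7 and 580.8 CPM (PR-cre model) in basal TEBs, against 342.0 and 220.3 CPM and 212.3 and 228.5 CPM in basal ducts. The lowest TEB library exceeded the highest duct library, and the log2 fold change was 1.02 ± 0.34 (adjusted p = 0.0264). That call was lost in 7 of 15 alternatives, with DESeq2 (0.96, adjusted p = 0.17) and on leaving out each basal library except Elf5-model duct replicate 1 and PR-cre-model TEB replicate 1 (0.91 to 1.08, adjusted p = 0.0511 to 0.0916). It held without the 2 libraries that stood apart (1.01, adjusted p = 0.000238). As contrasts in the fit of all 24 libraries, the changes in basal cells of the Elf5 and PR-cre models were 0.74 and 1.29. Neither was past the threshold (adjusted p = 0.257 and 0.0688).

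Igfbp4 had 547.4 and 487.8 CPM and 541.1 and 578.9 CPM in basal TEBs of the Elf5 and PR-cre models, against 168.1 and 123.2 CPM and 118.3 and 114.8 CPM in basal ducts. TEB libraries agreed closely and were 4.13-fold higher (2.05 ± 0.59, adjusted p = 0.0117). As contrasts within each model in the fit of all 24 libraries, the changes of 1.83 and 2.26 missed the threshold (adjusted p = 0.101 and 0.0658). All groups share an estimate of the spread in that fit, which holds the 2 luminal libraries that stood apart. Within each model the TEB libraries lay above the duct libraries. Both genes were nearly confined to the basal layer. In ducts, basal cells had 570.3-fold more Igfbp2 and 52.6-fold more Igfbp4 than luminal cells (log2 fold changes 9.16 ± 0.39 and 5.72 ± 0.55, adjusted p = 7.15e-11 and 6.07e-07). The luminal mean holds GFP- duct replicate 2, and without the 2 libraries that stood apart the log2 fold changes were 9.87 and 6.62. In TEBs the differences were 1418-fold and 143.2-fold (10.47 ± 0.40 and 7.16 ± 0.56, adjusted p = 2.44e-11 and 6.96e-08).

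Luminal Igfbp2 stayed between 0.0900 and 2.66 CPM. Luminal Igfbp4 was highest in GFP+ TEBs, at 22.3 and 15.8 CPM, with 6.26 and 10.4 CPM in YFP- TEBs, against 6.53 and 1.52 CPM in GFP+ ducts and 0.675 and 1.75 CPM in YFP- ducts. GFP- and YFP+ TEBs had 1.01 to 1.23 CPM, so that in TEBs Igfbp4 was 11.2-fold higher in GFP+/YFP- than in GFP-/YFP+ cells (3.49 ± 0.71, adjusted p = 0.00112). In GFP- ducts the value was 1.09 CPM in replicate 1 and 24.9 CPM in the replicate with keratinocyte and basal transcripts. In ducts the difference between GFP+/YFP- and GFP-/YFP+ cells was therefore -0.32 with that library (adjusted p = 0.809) and 1.45 without the 2 libraries (adjusted p = 0.0449).

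Igfbp3, the main carrier of IGFs in blood, was also a basal transcript, with its highest values in basal ducts of the PR-cre model. Basal TEBs had 289.7 and 377.8 CPM (Elf5 model) and 456.7 and 544.5 CPM (PR-cre model), against 782.7 and 504.9 CPM and 1648 and 1446 CPM in basal ducts. Within each model the TEB libraries were lower than the duct libraries, but over both models they overlapped, and the log2 fold change of -1.29 ± 0.81 missed the threshold (adjusted p = 0.225, 95% interval -3.04 to 0.47). It passed without the 2 luminal libraries (-1.29, adjusted p = 0.00112). In luminal cells Igfbp3 lay between 0.256 and 3.13 CPM in 14 of 16 libraries, and the other 2, at 13.6 and 133.4 CPM, were the libraries with keratinocyte transcripts. Basal cells exceeded luminal cells by 8.29 ± 0.83 in ducts and by 8.29 ± 0.85 in TEBs on the log2 scale (adjusted p = 9.6e-07 and 1.19e-06), and by 9.79 and 8.72 without those 2 libraries.

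Igfbp5, a binding protein best known in the mammary gland for its rise in involution, was lower in TEBs in all 6 populations. In ducts it had the highest mean level per length of the 10, with 1481 ± 554.7 RPKM in basal, 2862 ± 235.6 RPKM in GFP+/YFP- and 98.5 ± 62.1 RPKM in GFP-/YFP+ cells (SD, n = 4 each). Basal TEBs had 1462 and 1629 CPM (Elf5 model) and 2712 and 3767 CPM (PR-cre model), against 6091 and 5636 CPM and 11650 and 11300 CPM in basal ducts. GFP+ cells had 5222 and 4928 CPM in TEBs, against 16710 and 18360 CPM in ducts, and YFP- cells had 3649 and 4543 CPM in TEBs, against 15000 and 16940 CPM in ducts. GFP- cells had 25.4 and 45.2 CPM in TEBs, against 123.9 and 686.0 CPM in ducts, and YFP+ cells had 104.5 and 55.6 CPM in TEBs, against 993.6 and 503.4 CPM in ducts. In each population both TEB libraries lay below both duct libraries, and the GFP+/YFP- ducts stood highest of all.

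The log2 fold change of Igfbp5 was -1.87 ± 0.41 in basal cells and -2.62 ± 0.30 in luminal cells (adjusted p = 0.00197 and 1.23e-05). In the single populations it was -1.92 and -1.82 in basal cells of the Elf5 and PR-cre models, -1.79 in GFP+, -1.96 in YFP-, -3.52 in GFP- and -3.22 in YFP+ cells. Leaving out 1 library in turn ended the call in 18 of 24 fits of single populations, with changes of -1.60 to -4.25 and adjusted p up to 0.216. Leaving out the 2 libraries that stood apart together kept it in 6 of 6, at -1.79 to -3.26 (adjusted p up to 0.0119), and the change in GFP- cells was then -1.81. In ducts Igfbp5 was 30.4-fold higher in GFP+/YFP- than in GFP-/YFP+ cells (4.93 ± 0.47, adjusted p = 8.78e-07; log2 fold change 5.76 without the 2 libraries), and in TEBs 85.7-fold higher (6.42 ± 0.50, adjusted p = 1.37e-07). Basal cells exceeded the luminal average of log2 levels by 1.43 ± 0.33 in ducts and 2.18 ± 0.33 in TEBs (adjusted p = 0.00171 and 5.19e-05), with the basal libraries inside the luminal range at both sites. Mean CPM was alike in basal and luminal libraries, at 8668 and 8664 in ducts and 2392 and 2322 in TEBs. Each GFP+/YFP- duct library exceeded each basal duct library.

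Igfbp7, a secreted protein related to the IGF-binding proteins that binds IGFs weakly, had the largest change of the set in basal TEBs. It had 8.51 and 6.46 CPM (Elf5 model) and 22.0 and 41.9 CPM (PR-cre model) in TEBs, against 92.3 and 91.2 CPM and 196.7 and 234.6 CPM in ducts. The TEB libraries were well below the duct libraries, 9.11-fold lower (log2 fold change -3.19 ± 0.25, adjusted p = 8.39e-08). In luminal cells the change was -0.69 ± 0.18 (adjusted p = 0.00563, and 0.0645 with limma-voom), and the difference of -2.50 ± 0.29 between the layers was past the threshold (adjusted p = 1.37e-05). By gate, the luminal change was -1.51 in GFP+ and -1.10 in GFP- cells, both past the threshold, and -0.09 in YFP- and -0.06 in YFP+ cells, which were not. The value in GFP- cells was -0.48 without the 2 libraries that stood apart (adjusted p = 0.528). Between GFP- and YFP+ cells the change differed by -1.04, not past the threshold (adjusted p = 0.527). The difference between GFP+ and YFP- cells in this change was not past the threshold: that comparison and the one between the 2 basal models, both chosen after seeing the data, called 0 of the 10 genes, against 1.13% and 0.994% of all genes.

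Several marker sums moved with the basal TEB comparison. Summed over their lists, immune transcripts (10 genes) were at 4.85 to 9.01 CPM in basal TEBs, against 16.4 to 37.1 CPM in basal ducts, and adipocyte transcripts (6 genes) at 3.27 to 7.57 CPM, against 11.98 to 43.2 CPM. Endothelial transcripts (8 genes) were at 8.53 to 17.7 CPM in basal TEBs, against 7.35 to 94.2 CPM in basal ducts, and pericyte transcripts (6 genes) at 19.7 to 31.6 CPM, against 30.7 to 90.3 CPM. Fibroblast transcripts (12 genes) overlapped, at 763.5 to 1735 CPM in basal TEBs and 882.9 to 1592 CPM in basal ducts. The basal list itself (8 genes) summed to 5759 to 12370 CPM in basal TEBs, against 27990 to 30430 CPM in basal ducts, and the luminal list (6 genes) to 386.9 to 613.4 CPM, against 744.2 to 917.9 CPM. The luminal progenitor list (7 genes) summed to 293.9 to 1039 CPM in basal TEBs, against 44.5 to 109 CPM in basal ducts, but 3 of its genes were called higher and 3 lower, and the sum was led by the milk protein gene Csn3 (552.6 ± 351.7 CPM in TEBs and 24.1 ± 18.6 CPM in ducts, SD, n = 4 each). The proliferation list (5 genes) summed to 1293 to 1626 CPM in basal TEBs, against 234.1 to 452.4 CPM in basal ducts. Adipoq, the defining adipocyte transcript, was at 0 in all 12 duct libraries and at most 0.173 CPM in TEBs. The part of such cells, and of the lower basal list, in the values of Igfbp7, Igfbp5, Igfbp3 and Irs2 was not tested.

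Marker lists also moved with the luminal TEB comparison. The luminal progenitor list had 6 of 7 genes called lower in luminal TEBs, with sums of 3867 to 4244 CPM in GFP+/YFP- TEBs, against 7745 to 15930 CPM in GFP+/YFP- ducts, and 69.9 to 149.7 CPM in GFP-/YFP+ TEBs, against 170.7 to 574.8 CPM in GFP-/YFP+ ducts. The proliferation list had 5 of 5 genes called higher, with sums of 859.7 to 2149 CPM in luminal TEBs, against 197.8 to 501.2 CPM in luminal ducts. The basal list had 6 of 8 genes called lower, with sums of 8.61 to 811.2 CPM, against 27.5 to 3316 CPM, and of 12 fibroblast genes 5 were called higher and 1 lower. Their part in the luminal values of Irs1, Irs2, Igf1r, Igfbp5 and Igfbp7 was not tested.

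**Figure D3:**
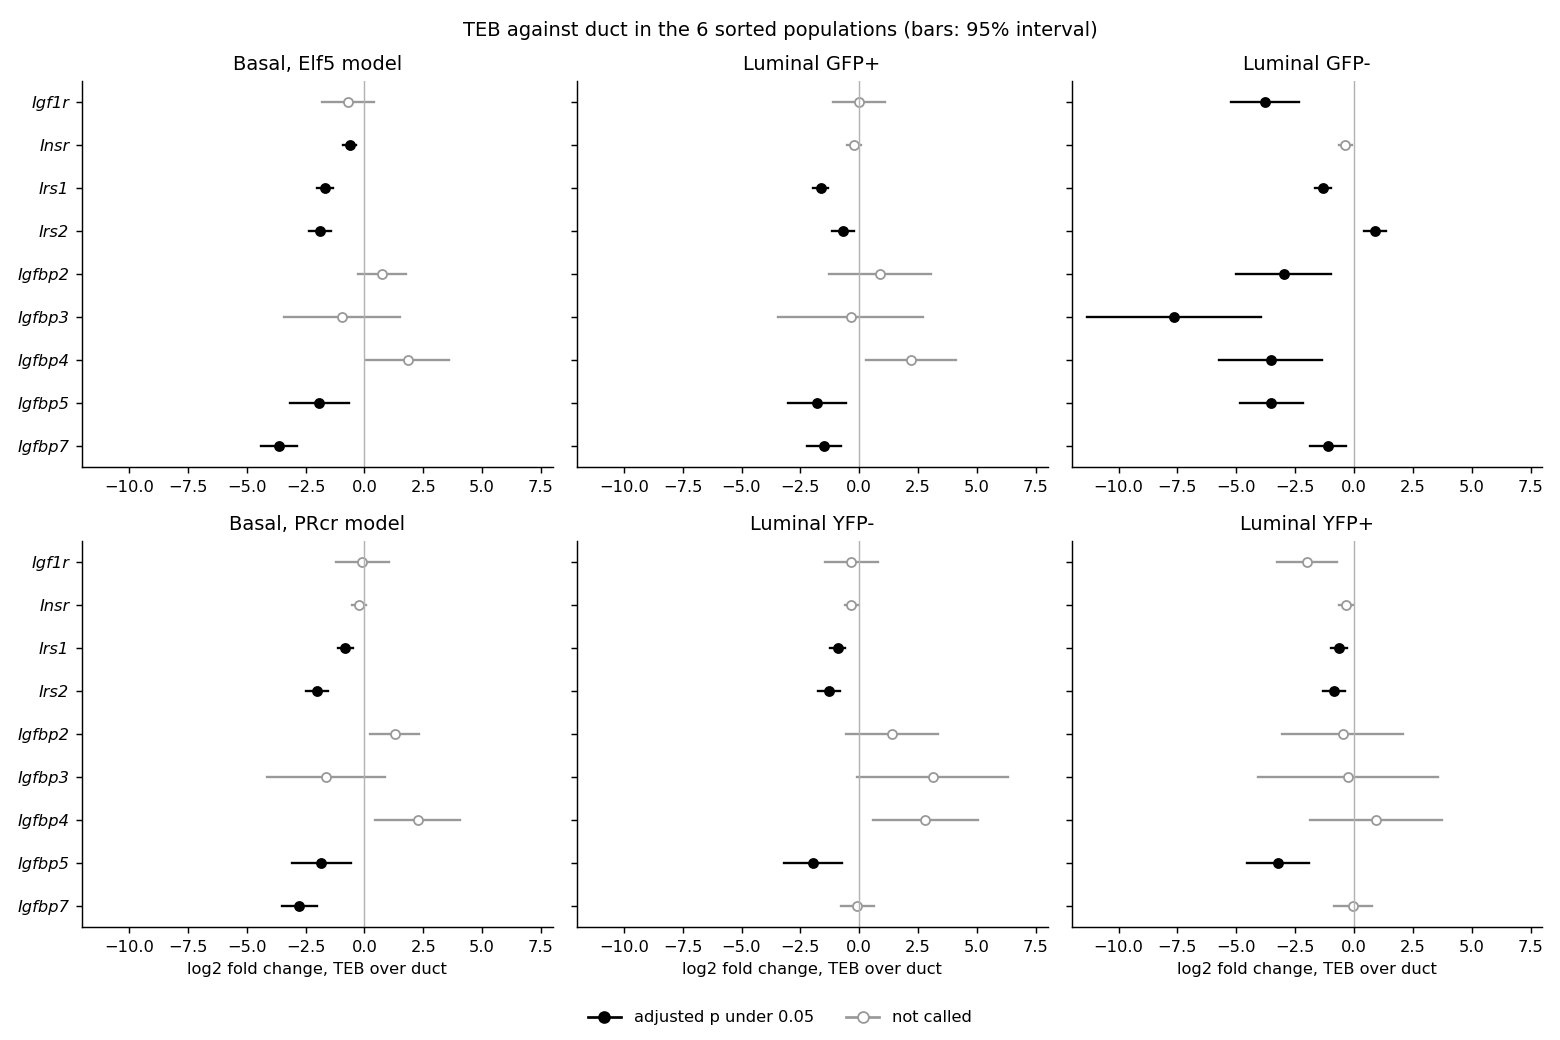
TEB over duct log2 fold change with its 95% interval for 9 of the genes in each of the 6 sorted populations (2 libraries a group). Igf1 is left out because YFP- ducts had 0 counts. Irs1 and Igfbp5 lie below 0 and are called in all 6. Igf1r, Insr and Igfbp7 also lie below 0 in all 6 but are not called in each. Irs2 lies above 0 in GFP- cells alone.

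Per length, the makeup of binding protein transcripts differed between TEBs and ducts of the basal layer. As a share of the summed RPKM of the 5 binding protein genes, Igfbp5 made up 25.4% to 39.8% in basal TEBs, against 58.6% to 65.6% in basal ducts. Igfbp2 made up 27.0% to 35.1% in basal TEBs, against 5.25% to 14.5% in basal ducts, and Igfbp4 17.3% to 26.9%, against 1.88% to 4.58%. Igfbp3 overlapped, at 12.02% to 14.9% in basal TEBs and 14.0% to 22.1% in basal ducts, and Igfbp7 made up 0.515% to 2.13%, against 4.29% to 6.58%. Basal ducts were thus led by Igfbp5 in each library. In basal TEBs the models differed, with Igfbp2 the largest share in the Elf5 model (35.1% and 34.8%, with Igfbp5 at 25.4% and 26.9%) and Igfbp5 the largest in the PR-cre model (35.5% and 39.8%, with Igfbp2 at 28.7% and 27.0%). In GFP+/YFP- cells Igfbp5 was 97.3% to 98.5% of the sum in TEBs, against 99.45% to 99.7% in ducts. In GFP-/YFP+ cells, where the sum is small, it was 62.7% to 87.6% in TEBs, against 61.5% to 98.8% in ducts. Shares are bound to sum to 100%, so a lower share of 1 gene raises the others. The mean levels of Igfbp2 were 379.2 ± 40.2 RPKM in basal TEBs and 188.5 ± 46.0 RPKM in basal ducts (SD, n = 4 each), and Igfbp5 in basal TEBs was at 408.7 ± 182.9 RPKM.

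**Figure D4:**
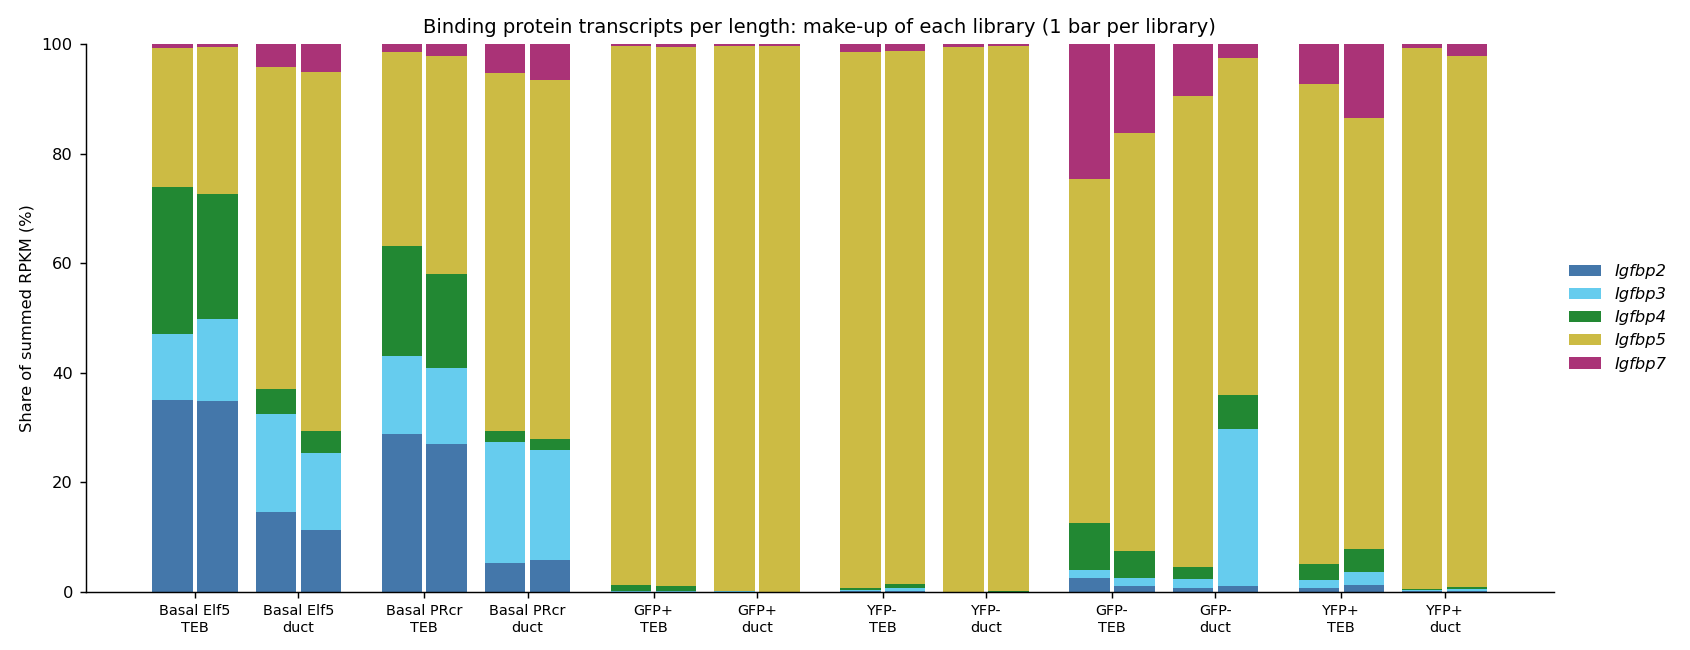
Share in percent of the summed RPKM of Igfbp2, Igfbp3, Igfbp4, Igfbp5 and Igfbp7 in each library, as stacked bars, TEB libraries left of duct libraries. Igfbp5 is below 40% in each basal TEB library, above 58% in each basal duct library and above 97% in each GFP+/YFP- library.

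Between the layers, 9 of the 10 genes were called in ducts and 10 of 10 in TEBs, in comparisons that called 63.3% of all genes in ducts (33.5% higher and 29.8% lower in basal cells) and 58.8% in TEBs (30.8% higher and 28.0% lower). In ducts 8 were higher in basal cells and Irs1 was lower. Insr, at -0.17 (adjusted p = 0.0878), was not called, though 11 of 19 alternatives called it. In TEBs 8 were higher in basal cells, and Irs1 and Insr were lower. Among those that were higher at both sites was Igf1, with basal levels as given above. Igfbp5 was another, called on averaged log2 levels, though its mean CPM was alike in both layers. Basal and luminal libraries did not overlap for Igf1r, Irs2, Igfbp2, Igfbp3, Igfbp4 and Igfbp7 in ducts (30.2% of all genes) and for Igf1r, Insr, Igfbp2, Igfbp3 and Igfbp4 in TEBs (31.0%). Leaving out the 2 libraries that stood apart, 9 and 10 were called, against 62.8% and 58.2% of all genes. Irs2 was higher in basal cells by 2.23 ± 0.13 in ducts and 0.76 ± 0.13 in TEBs, and Igfbp7 by 4.52 ± 0.20 and 2.02 ± 0.20 (adjusted p at most 7.87e-05).

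Within the luminal layer, Igf1r, Irs1, Irs2, Igfbp5 and Igfbp7 were higher in GFP+/YFP- than in GFP-/YFP+ cells at both sites. In ducts 6 of 10 were called, those 5 and Igf1, which was lower at 0 to 0.570 CPM, against an overlapping 0.210 to 0.757 CPM, beside 47.9% of all genes (24.6% higher and 23.3% lower). The Igf1 call rests on the YFP- ducts at 0 counts and was lost in 6 of 8 fits that left out 1 library (adjusted p up to 0.107). In TEBs 6 of 10 were called, those 5 and Igfbp4, all higher, beside 47.6% of all genes (24.6% higher and 23.0% lower). The GFP+/YFP- and GFP-/YFP+ libraries did not overlap for those 5 genes in ducts (33.2% of all genes), and for those 5 with Igfbp2, Igfbp3 and Igfbp4 in TEBs (39.0%). Without the 2 libraries that stood apart, 7 of 10 were called in ducts (46.8% of all genes) and 8 of 10 in TEBs (43.8%), where Igfbp2 at 1.86 and Igfbp3 at 2.01 passed as well (adjusted p = 0.00364 and 0.00322). Igfbp7 was higher by 2.11 ± 0.25 in ducts and 1.90 ± 0.26 in TEBs (adjusted p = 3.85e-06 and 1.46e-05). The TEB effect differed between the 2 kinds of luminal cell for 3 of the 10, beside 10.6% of all genes (4.93% higher and 5.68% lower). Igf1r was less reduced in TEBs of GFP+/YFP- cells (2.71, as above), Irs2 differed by -0.99 ± 0.22 (adjusted p = 0.00752) and Igfbp4 by 3.81 ± 1.11 (adjusted p = 0.0445). The Irs2 value averages unlike gates. Its TEB changes were -0.69 in GFP+ and -1.27 in YFP- cells, against 0.90 in GFP- and -0.87 in YFP+ cells. The Igfbp4 call was lost in 19 of 23 alternatives, and without the 2 libraries, where 2 of 10 and 11.2% of all genes were called, it was 1.83 (adjusted p = 0.134).

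The same 5 genes were higher in contrasts within each model. In the Elf5 model, GFP+ ducts differed from GFP- ducts by 2.87 for Igf1r, 2.62 for Irs1, 2.81 for Irs2, 5.44 for Igfbp5 and 1.53 for Igfbp7 on the log2 scale, among 7 of 10 called (35.7% of all genes). In the PR-cre model, YFP- ducts differed from YFP+ ducts by 3.84, 1.91, 3.41, 4.42 and 2.70 for the same genes, among 6 of 10 called (39.1%). In TEBs, GFP+ cells differed from GFP- cells by 6.64 for Igf1r, 2.31 for Irs1, 1.22 for Irs2, 7.17 for Igfbp5 and 1.12 for Igfbp7, among 6 of 10 called (33.4%), and YFP- cells differed from YFP+ cells by 5.48, 1.63, 3.01, 5.68 and 2.67 for the same genes, among 7 of 10 called (37.3%). The sign of 3 genes turned on GFP- duct replicate 2: in GFP+ relative to GFP- ducts, Igfbp2, Igfbp3 and Igfbp4 were at -2.46, -5.10 and -1.65 with it (Igfbp4 not called), and at 0.38, 0.88 and 1.92 without the 2 libraries (none of them called), where 5 of 10 and 33.3% of all genes were called. Igf1r in that comparison was 4.88 without them, Igfbp5 7.13 and Igfbp7 2.14.

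**Figure D5:**
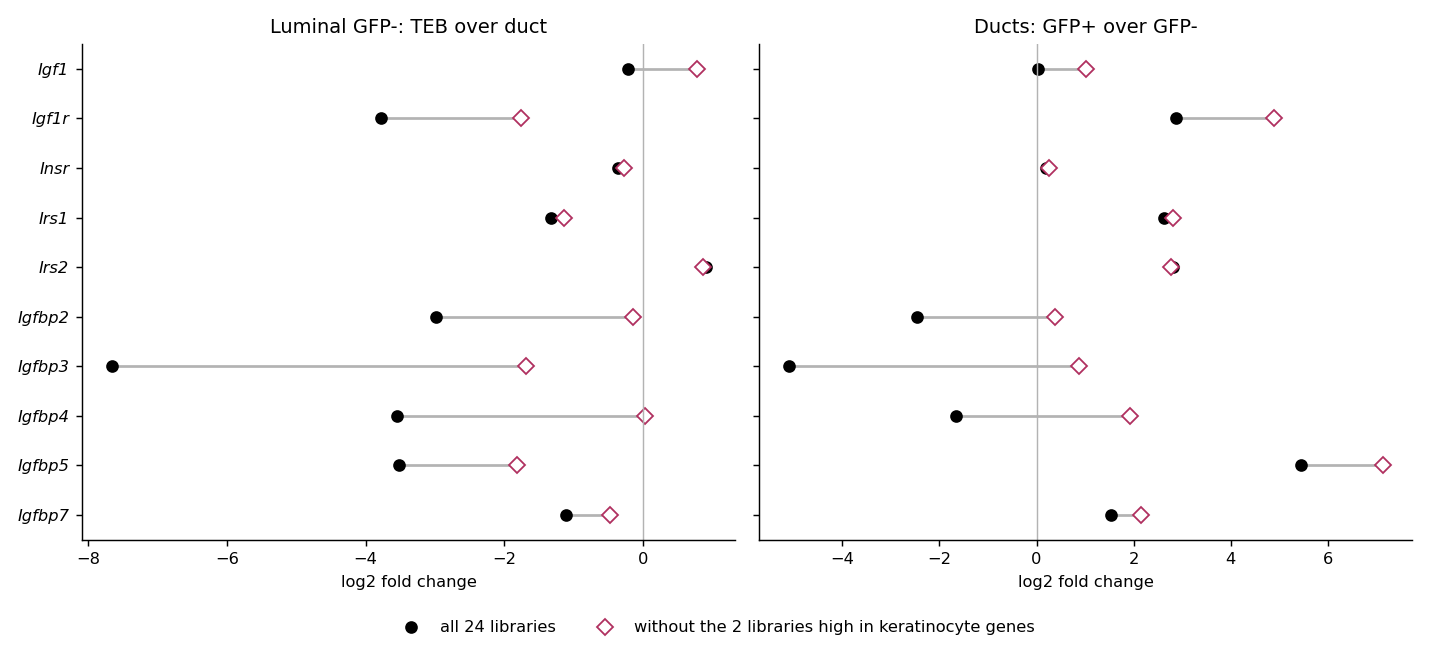
Log2 fold change for TEBs over ducts in GFP- cells and for GFP+ over GFP- cells in ducts, fitted with all libraries and without the 2 libraries with keratinocyte transcripts. A line joins the 2 estimates of each gene, and no standard error is drawn. Irs1 and Irs2 barely move between the fits, while Igfbp2, Igfbp3 and Igfbp4 move by several log2 units.

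Single populations can be compared by their counts. TEBs and ducts differed in 5 of 10 genes in basal cells of the Elf5 model (36.4% of all genes called), in 4 in basal cells of the PR-cre model (24.7%), in 4 in GFP+ cells (22.8%), in 4 in YFP- cells (18.4%), in 8 in GFP- cells (18.5%) and in 3 in YFP+ cells (7.86%). The count of 8 in GFP- cells rested on the library with keratinocyte transcripts, and was 3 without the 2 libraries (11.9% of all genes). The 4 in YFP- cells included Igf1, whose duct libraries had 0 counts. Irs2 was called lower in 5 populations and higher in GFP- cells. With 1 library left out at a time, that call was lost in 3 of 4 fits in GFP+ cells (-0.303 to -0.998), in 3 of 4 in YFP+ cells (-0.71 to -1.02) and in 2 of 4 in GFP- cells (0.56 to 1.19), and in 0 of 4 in each of the other populations. Igfbp7 was called lower in 4 populations, and that call was lost in 3 of 4 such fits in GFP- cells (-0.47 to -1.51) and in 1 of 4 in GFP+ cells (-1.19 to -1.92).

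Other genes of the pathway were followed through 6 lists of 73 genes in all, all of which passed the low-count filter. In basal TEBs relative to basal ducts, 1 of 12 adaptors and receptor regulators was called higher and 7 lower, with a median log2 fold change of -0.40. Socs3, a feedback inhibitor of cytokine and insulin receptor signalling, had 207.5 ± 69.9 CPM in TEBs and 1837 ± 264.1 CPM in ducts (SD, n = 4 each; log2 fold change -3.19 ± 0.15, adjusted p = 3.33e-10). Grb10, an adaptor that restrains both receptors, went the other way, with 65.8 ± 41.2 CPM in TEBs and 14.0 ± 11.3 CPM in ducts (2.49 ± 0.15, adjusted p = 3.91e-09), and the related Grb14 was lower (-2.14). Of 20 genes of PI3K-AKT-mTOR signalling 5 were higher and 8 lower, with a median of -0.06. Pik3r1, a regulatory subunit of PI3K, had 231.6 ± 31.9 CPM in TEBs and 741.4 ± 100.3 CPM in ducts (-1.69). The median for all genes was -0.035, with 20.9% called higher and 22.8% lower, so the median of the PI3K-AKT-mTOR list lay close to it and that of the adaptor list below.

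Of 15 FOXO factors and targets (AKT signalling keeps FOXO factors out of the nucleus), 1 was higher in basal TEBs and 10 were lower (median -0.67), among them Trp53inp1 (-1.30), Cited2 (-1.13) and Bcl6 (-0.94). Of 10 genes of the growth hormone, prolactin and oestrogen axis 2 were higher and 4 lower (median -0.50). The growth hormone receptor gene Ghr had 24.7 ± 1.61 CPM in basal TEBs and 91.9 ± 24.4 CPM in basal ducts (-1.86, adjusted p = 1.76e-06), Cish was at -2.08 and Areg, an EGF receptor ligand, at 1.74. Of 9 proteases of binding proteins and their inhibitors 1 was higher and 3 lower (median -0.83). The 1 that was higher was Pappa, the protease that cleaves IGFBP4, with 543.2 ± 231 CPM in TEBs and 269.2 ± 36.3 CPM in ducts (0.92, adjusted p = 0.0353), and Stc1, whose product inhibits PAPP-A, was lower (-1.58). Of 7 other ligands and carriers 2 were called in each direction (median -0.96).

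In luminal TEBs relative to luminal ducts, the calls were 1 higher and 3 lower of 12 adaptors (median -0.02), 1 and 7 of 15 FOXO genes (-0.24), 1 and 3 of 10 hormone axis genes (-0.30), 0 and 1 of 9 proteases and inhibitors (0), 2 and 1 of 7 ligands and carriers (1.48), and 6 and 4 of 20 PI3K-AKT-mTOR genes (0.06). Over all genes the median was -0.001, with 20% called higher and 18.6% lower. Grb14 was higher by 1.52, where in basal TEBs it was lower, and the difference between the 2 effects was -3.66 (adjusted p = 8.1e-07). Socs3 and Pik3r1 were lower in both layers, at -1.31 and -0.95 in luminal TEBs, and more so in basal TEBs, by -1.88 and -0.74 (adjusted p = 8.43e-07 and 0.00398).

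Between layers and luminal populations the regulators of binding proteins were split. Pappa was higher in basal than in luminal cells by 8.08 in ducts and 9.44 in TEBs on the log2 scale, and Igfbp6 by 8.05 and 4.83. Stc2, whose product also inhibits PAPP-A, was lower in basal than in luminal TEBs (-6.58). It was also lower in GFP+/YFP- than in GFP-/YFP+ cells, by -4.12 in ducts, with 69.2 ± 66.6 CPM in GFP+/YFP- ducts and 837.4 ± 514.9 CPM in GFP-/YFP+ ducts (SD, n = 4 each). Stc1 went the other way, with 45.5 ± 23.9 CPM in GFP+/YFP- ducts and 3.63 ± 1.97 CPM in GFP-/YFP+ ducts (log2 fold change 3.60, adjusted p = 1.27e-05). In the same comparison of luminal cells in ducts, Pik3r1 was at 1.94 and Foxo1 at 1.98, and Grb14 at -3.37 and Pik3r3 at -2.23. By count, 4 of 12 adaptors were higher and 4 lower (median -0.14), 8 and 5 of 15 FOXO genes (0.43), 2 and 6 of 10 hormone axis genes (-1.86), 1 and 4 of 9 proteases and inhibitors (-0.63), 0 and 3 of 7 ligands and carriers (-0.41), and 8 and 5 of 20 PI3K-AKT-mTOR genes (-0.05). Over all genes 24.6% were called higher and 23.3% lower, with a median of 0.

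Likeness of pattern was measured as Pearson's r of log2 CPM over the 12 group means, as a description without a test. The genes most like Igf1r were Tmem47 (0.993), Btbd11 (0.993) and Epha4 (0.992). Those most like Igfbp5 were Itprid1 (0.983), Rgma (0.978) and Lcn2 (0.972), and those most like Igfbp2 were Tro (0.999), Crispld1 (0.998) and Usp13 (0.998). For Igfbp4 they were Asb16 (0.978), Egr4 (0.977) and 5033430I15Rik (0.976), and for Igfbp3 Cxcl14, Phyhip and Cpxm2 (0.993 each). For Irs1 they were Smpdl3a (0.953), Tanc2 (0.95) and Add3 (0.949), for Irs2 Kif5a (0.958) and BC005537 (0.954), and for Igfbp7 Smad9 (0.978), 9530052E02Rik (0.976) and Cnr1 (0.974). Insr was most like Ddrgk1 (0.936), Dcaf6 (0.928) and Gigyf1 (0.916). The levels of genes that differ strongly between the sorted gates give a high r over these 12 points whatever else they share. Within the set, Igf1r and Igfbp5 had r = 0.92 over the same group means.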

How the data were processed

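Total RNA (miRNeasy, DNase-treated) of 24 libraries was sequenced after TruSeq RNA v2 preparation, per the labels' protocols, a kit that does not mark strand. The deposited values are whole-number counts per gene, made by the authors with featureCounts on mm10, per the submitters' processing notes; the aligner, the annotation and the handling of multiply mapped reads are not given in the sources at hand. The single-library files and the series matrix differed in 0 values. RefSeq tables gave symbols for 25275 of 27179 identifiers, and GENCODE tables for 18; the 1886 others held 1.22% of counts. Groups and replicate numbers came from the sample titles. No 2 replicates were duplicates: over genes, the chi-square divided by its degrees of freedom was 17.2 to 164.7.

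Counts were tested with edgeR 4.0.16 in R 4.3.3: filterByExpr (minimum count 10, minimum total 15), TMM scaling, and 1 robust quasi-likelihood fit with a mean for each of 12 groups (12 residual degrees of freedom). p-values were adjusted over 18109 genes by the Benjamini-Hochberg method, with calls under 0.05. Contrasts average group means on the log2 scale, so a fold need not equal a ratio of mean CPM. RPKM used the deposited gene length. On simulated counts for basal TEB against duct (17740 genes), 75% of genes changed by 1 and 93% of those changed by 2 on the log2 scale were recovered, with 0.051% of unchanged genes called. The changed genes were drawn only from those above a limit on mean count, so recovery at low counts was not tested. The simulation changed 100 genes at each size and left all others equal between TEBs and ducts. In the data 43.6% of genes were called in this comparison, so the simulated rates need not hold for them. Alternatives were RLE scaling, no low-count filter, a replicate block, limma-voom (limma 3.58.1), DESeq2 1.42.0, fits of the compared groups alone, each library left out, and both libraries with keratinocyte transcripts left out. The text names all 10 genes of the set, of each pathway list the called genes with the largest changes (up to 3 a comparison) apart from those with a group near 0 counts, and of each gene of the set those most alike; some genes that this rule names are not reported here. The genes, lists and tests were chosen with earlier results of these data known. Floors and counts cover counting error only, since reads carry no molecular identifiers.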

Additional observations from a re-analysis of the deposited data

Results flagged for a closer look

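Differences between 2 effects of the same contrast met the rule for a closer look in 6 cases, each tested as an interaction in edgeR's fit over all genes. The TEB effect was lower in basal than in luminal cells for Irs2 by -1.47 (adjusted p = 2.34e-05) and for Igfbp7 by -2.50 (adjusted p = 1.37e-05). For Irs2 both layers were lower in TEBs, basal cells more so, with all 4 basal TEB libraries below all 4 basal duct libraries. For Igfbp7 all 4 basal TEB libraries lay below the basal duct libraries, while luminal TEB and duct libraries overlapped.

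Between GFP+/YFP- and GFP-/YFP+ cells the TEB effect differed by 2.71 for Igf1r (adjusted p = 0.00923), by -0.99 for Irs2 (adjusted p = 0.00752) and by 3.81 for Igfbp4 (adjusted p = 0.0445). The Irs2 value averages over GFP- cells, where the change was 0.90, and YFP+ cells, where it was -0.87. For Igf1r both TEB libraries lay below both duct libraries within the GFP-, the YFP+ and the YFP- gate, and overlapped with them in the GFP+ gate. The Igfbp4 value rests on GFP- duct replicate 2, at 24.9 CPM against 1.09 CPM in the other library of its group, and is 1.83 without the 2 libraries that stood apart. Between GFP- and YFP+ cells, a comparison added after seeing the data, the TEB effect on Irs2 differed by 1.77 (adjusted p = 0.0355), with both GFP- TEB libraries above both GFP- duct libraries and both YFP+ TEB libraries below both YFP+ duct libraries. The Elf5 and PR-cre models differ in reporter and preparation as well as in gate, so these cannot be told apart. Single libraries were not screened for outliers within groups, since each group holds 2.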

How the results depend on the processing

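For 9 of the genes (Igf1 left out) over 21 comparisons, 2833 alternatives were computed, of which 2531 kept direction and call, 124 lost the call, 96 gained it, 74 changed sign without a call in either fit and 8 reversed. RLE scaling moved the median of all genes by at most 0.113 on the log2 scale. Numbers of the 10 genes called changed by over 1.5 times as follows. Without the 2 libraries with keratinocyte transcripts it was 8 in basal cells of the Elf5 model (5 in the fit reported), 7 in those of the PR-cre model (4), 3 in GFP- cells (8) and 1 for the difference between the basal models (0). With limma-voom these were 8, 3 for GFP-, 1 for the basal models and 0 for GFP- minus YFP+ (1). DESeq2 gave 7 for the TEB effect in GFP+/YFP- minus GFP-/YFP+ (3), 1 for the basal models, 2 for GFP+ minus YFP- (0) and 3 for GFP- minus YFP+. Fits of the compared groups alone gave 10 and 7 in basal cells of the Elf5 and PR-cre models, 0 in GFP- cells, 3 for GFP+ against GFP- ducts (7), 1 for the basal models, 1 for GFP+ minus YFP- and 0 for GFP- minus YFP+. With 1 library left out at a time the number ran from 3 to 4 in basal cells of the Elf5 model, 1 to 3 in GFP+ (4), 2 to 3 in YFP- (4), 3 to 8 in GFP- and 0 to 3 in YFP+ cells (3), from 2 to 6 for basal minus luminal (2) and for GFP+/YFP- minus GFP-/YFP+, from 0 to 1 for the basal models and for GFP+ minus YFP-, and from 0 to 5 for GFP- minus YFP+.

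Igfbp4 reversed in GFP+/YFP- against GFP-/YFP+ ducts, to 1.448 without the 2 libraries (-0.32 in the fit reported), and ran from -1.075 to 1.443 with 1 library left out at a time, the upper end without GFP- duct replicate 2. In GFP- TEBs against ducts it was 0.022 (-3.54) and ran from -4.455 to 0.036. In GFP+ against GFP- ducts, Igfbp2 was 0.382 (-2.46) and ran from -3.505 to 0.366, and Igfbp3 was 0.880 (-5.10) and ran from -6.833 to 0.866. Each upper end was again the fit without GFP- duct replicate 2. Over all genes, calls in YFP+ cells were 1424, but 2200 with DESeq2 and 2424 with the compared groups alone, which gave 105 in GFP- cells (3351) and 2303 in GFP+ against GFP- ducts (6463). Replicate numbers were not used to pair libraries in the fit reported. Deviations of same-numbered libraries correlated between -0.01 and 0.311 over 30 pairs and passed 0.1 in 13. In the Elf5 model they ran from 0.047 to 0.311, and whether same-numbered libraries share a preparation was not tested. With the replicate block the numbers called in the 8 main comparisons were 7, 6, 2, 9, 10, 6, 6 and 2, and GFP+ minus YFP- called 1. Depth limits Igf1 and the luminal levels of Igfbp2, Igfbp3 and Igfbp4, where 3 counts stand for 0.057 to 0.096 CPM on unscaled totals. Groups of 2 leave leave-out fits with 1 library in a group, which is assumed to vary like the others.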
